A study of Mus musculus with 12 samples.

Results

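Transcripts of 10 genes of extracellular matrix turnover were followed in synovial macrophages: 7 matrix metalloproteinases (MMPs; *Mmp2*, *Mmp3*, *Mmp9*, *Mmp12*, *Mmp13*, *Mmp14* and *Mmp19*) and 3 tissue inhibitors of metalloproteinases (TIMPs; *Timp1*, *Timp2* and *Timp3*). They were taken by symbol from the 26699 gene symbols counted in each library. All 10 were present, and 9 of them were among the 11927 genes with enough counts to be tested. *Mmp3* was not, and its counts are given without a test.

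MMPs are zinc-dependent endopeptidases that are made as inactive proenzymes and, once activated outside the cell or at its surface, cut collagens, elastin, proteoglycans and other matrix proteins. TIMPs bind the catalytic site of active MMPs and block it, so that the balance of enzyme and inhibitor sets net proteolysis. In the joint, both families are studied for the turnover of synovial matrix and the breakdown of cartilage, with fibroblasts, macrophages, neutrophils and chondrocytes all known as sources.

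The libraries came from the synovium of adult wild-type C57BL/6 mice (C57BL/6J in the study's methods), dissected whole and incubated for 4 h as explants. Explants received CGRP at 100 nM (calcitonin gene-related peptide, a neuropeptide released by sensory nerve fibers) or, by the study's methods, vehicle. Cells were sorted after the incubation into MHCII+CD11c- macrophages, labelled IAIE after the MHC class II antigens I-A and I-E, and MHCII+CD11c+ macrophages, labelled CD11c. There were 4 groups of 3 libraries each. Those without CGRP carry the word Healthy in their titles and are called control here. CGRP was given to the whole explant, so that the sorted cells were exposed together with all other cells of the tissue. The labels do not say whether the 3 libraries of a group came from separate mice or pools, and p-values measure only the spread between these libraries.

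Library totals ranged from 2127191 to 5649698 counts, which puts the floor of 3 counts between 0.534 and 1.34 CPM (counts normalised to the TMM-scaled size of the library). *Itgax*, which encodes CD11c, lay between 219 and 270 CPM in CD11c control libraries and between 107 and 121 CPM in CD11c CGRP libraries. In the 6 IAIE libraries it lay between 1.24 and 10.7 CPM. The MHC class II gene *H2-Ab1* was at 2085 CPM or more in every library. It was at 3482 to 4248 CPM in IAIE control and 2085 to 2571 CPM in IAIE CGRP libraries. CD11c libraries held 9957 to 11610 CPM as controls and 6222 to 7231 CPM with CGRP. All 10 macrophage markers were tested, and their summed level ran from 4974 to 7900 CPM in IAIE and from 2005 to 2989 CPM in CD11c libraries. A list of 9 dendritic cell markers summed to between 95.02 and 180 CPM in IAIE and between 643 and 781 CPM in CD11c libraries. These are bulk samples, in which fewer cells of a type and less RNA per cell cannot be told apart.

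*Mmp3*, *Mmp12* and *Mmp13* lie near each other on chromosome 9 of the mouse genome (GRCm38), at 7445822 to 7455975, 7344381 to 7369499 and 7272514 to 7283331, all on the plus strand. *Mmp14* lies on chromosome 14 (54431612 to 54445364), *Mmp2* on chromosome 8 (92827291 to 92853420), *Mmp9* on chromosome 2 (164940780 to 164955850) and *Mmp19* on chromosome 10 (128790910 to 128800824). *Timp1* is on the X chromosome (20870166 to 20874735), *Timp2* on chromosome 11 (118301069 to 118355740) and *Timp3* on chromosome 10 (86300372 to 86349506). Genes on the opposite strand, *Tmem198b* and *Gm47093*, cover 28.3% of the exon bases of *Mmp19*, and *Syn3* covers 21.3% of those of *Timp3*. The strand setting of the counting is not stated. *Tmem198b* itself was at 3.44 to 19.5 CPM, *Gm47093* held at most 2 counts and *Syn3* at most 11 counts in any library. *Mmp3* shares 14.6% of its 31-base transcript words with other genes, most of all *Mmp10*, which held between 0 and 7 counts.

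RefSeq start-site windows were at hand for 7 of the 10 genes, 8 windows in all. The 250 bases before the start (GRCm38.p6, plus strand, 5′ to 3′) are shown for *Mmp12*, *Mmp13* and *Mmp14*. Of the 7 MMP genes followed here, these 3 rose with CGRP in at least 1 subset. *Mmp3*, the neighbor of *Mmp12* and *Mmp13* on chromosome 9, is shown beside them. No window was examined for *Mmp25*, a further MMP gene whose transcripts rose. Capitals mark TGANTCA, the sequence bound by AP-1 (Fos and Jun dimers), where N is any base. The *Mmp12* window (chr9:7347124-7347373) belongs to the downstream one of its starts, inside the annotated gene. The others are chr9:7272264-7272513 for *Mmp13*, chr9:7445572-7445821 for *Mmp3* and chr14:54431348-54431597 for *Mmp14*.
Mmp12: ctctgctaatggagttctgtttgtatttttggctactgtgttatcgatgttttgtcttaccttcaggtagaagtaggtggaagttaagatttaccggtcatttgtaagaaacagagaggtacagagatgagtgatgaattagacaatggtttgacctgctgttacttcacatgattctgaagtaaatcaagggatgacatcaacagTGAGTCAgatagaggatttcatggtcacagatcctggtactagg
Mmp13: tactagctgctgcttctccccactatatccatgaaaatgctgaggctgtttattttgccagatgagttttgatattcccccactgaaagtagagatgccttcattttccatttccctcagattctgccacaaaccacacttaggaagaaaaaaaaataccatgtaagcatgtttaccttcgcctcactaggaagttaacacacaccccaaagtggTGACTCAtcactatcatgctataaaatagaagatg
Mmp3: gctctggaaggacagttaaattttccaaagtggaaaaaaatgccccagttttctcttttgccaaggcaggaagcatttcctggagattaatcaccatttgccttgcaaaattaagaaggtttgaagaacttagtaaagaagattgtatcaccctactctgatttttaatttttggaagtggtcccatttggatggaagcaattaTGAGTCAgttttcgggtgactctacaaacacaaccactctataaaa
Mmp14: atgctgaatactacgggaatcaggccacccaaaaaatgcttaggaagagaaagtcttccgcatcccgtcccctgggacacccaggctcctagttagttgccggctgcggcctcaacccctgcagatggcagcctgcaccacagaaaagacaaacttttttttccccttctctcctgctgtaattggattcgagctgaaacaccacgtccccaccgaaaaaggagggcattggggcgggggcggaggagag

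TGANTCA was found as TGAGTCA 44 bases before the downstream start of *Mmp12*, as TGACTCA 35 bases before the start of *Mmp13* and as TGAGTCA 46 bases before that of *Mmp3*. It was absent from the windows of *Mmp14*, *Timp1*, *Timp2*, *Timp3* and the upstream start of *Mmp12*. The windows searched ran from 250 bases before to 50 bases after the start. Over all 32851 RefSeq windows of that span, 7.81% held TGANTCA on either strand. The full cAMP response element TGACGTCA, held by 1.79% of windows, was in none of the 8. Its core TGACG, which lies within the full element and is held by 20.8% of windows, was found only before *Timp1*. These matches describe the letters in the windows, and binding was not measured.

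With CGRP, transcripts of *Mmp12* and *Mmp14* rose in both subsets and *Mmp19* fell in both, whereas *Mmp13* and *Timp3* passed the test in the CD11c subset and not in the IAIE subset. *Timp1* and *Timp2*, the inhibitors with the most transcripts, did not pass in either. In the IAIE subset 3 of the 9 tested genes passed an adjusted p of 0.05 (edgeR quasi-likelihood test), 2 higher and 1 lower, where 9.21% of all tested genes passed, 5.32% higher and 3.89% lower. In the CD11c subset 5 of 9 passed, 4 higher and 1 lower, where 10.9% of all tested genes passed, 6.29% higher and 4.59% lower. Their median log2 fold change was -0.03 in the IAIE subset, against -0.02 over all tested genes, and 0.45 in the CD11c subset, against 0.0016. The control and CGRP libraries did not overlap for 4 of the 9 genes in the IAIE subset, where 24.9% of all tested genes did not overlap, and for 5 of the 9 in the CD11c subset, where 29.2% did not.

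**Figure D1:**
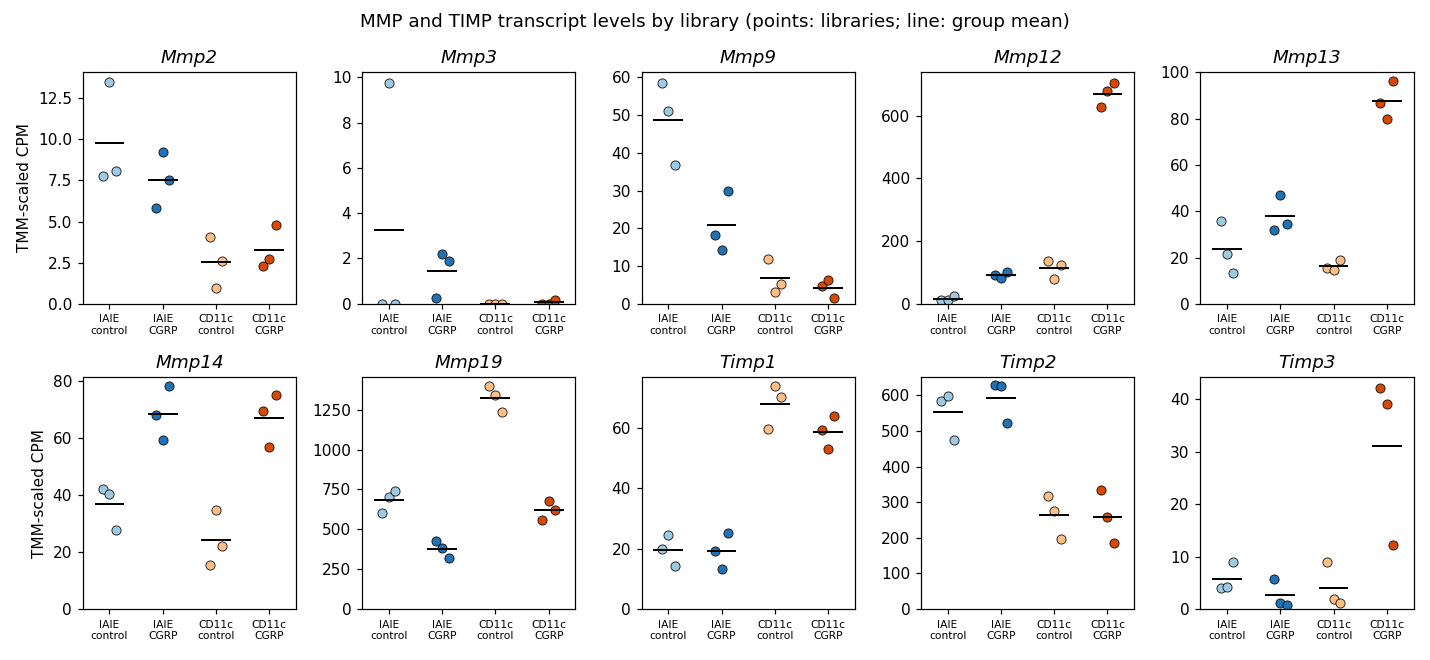
Level of each of the 10 genes in TMM-scaled CPM (vertical axes, 1 scale per gene) in the 12 libraries, by subset and treatment; points are libraries and lines are group means. *Mmp12* stood at 627 to 705 CPM in the CD11c CGRP libraries, above every other library, and *Mmp3* was seen mainly in IAIE libraries.

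Macrophage elastase is encoded by *Mmp12*, an enzyme made chiefly by macrophages that degrades elastin. In IAIE cells it was at 11.79, 12.6 and 23.7 CPM in control libraries and at 92.9, 83.6 and 99.9 CPM in CGRP libraries. CD11c control libraries held 136, 80.4 and 123 CPM, and CD11c CGRP libraries 627, 677 and 705 CPM. Control and CGRP libraries did not overlap in either subset, and the CD11c control libraries overlapped with the IAIE libraries that had received CGRP. The rise was 5.93-fold in IAIE cells (log2 fold change 2.57 ± 0.23 SE, adjusted p 1.21e-06) and 5.94-fold in CD11c cells (2.57 ± 0.19, adjusted p 2.04e-07). The difference between these effects, the subset-by-CGRP interaction, was 0.0025 on the log2 scale (95% interval -0.62 to 0.63, adjusted p 0.9998). *Mmp12* was 7.25-fold higher in CD11c than in IAIE cells among control libraries (log2 difference 2.86 ± 0.23, adjusted p 5.27e-08) and 7.26-fold higher among CGRP libraries (2.86 ± 0.19, adjusted p 1.31e-08). Leaving out any 1 of the 12 libraries, or using any of the other models tried, kept these 4 calls past the threshold.

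Collagenase-3, the product of *Mmp13*, cleaves fibrillar collagen and is the main interstitial collagenase of rodents. Its level was 36.0, 21.5 and 13.4 CPM in IAIE control and 31.8, 47.1 and 34.3 CPM in IAIE CGRP libraries. These groups overlapped, and the change did not pass (log2 fold change 0.65 ± 0.26, 95% interval 0.10 to 1.21, adjusted p 0.144). Without IAIE control replicate 1, the highest of its group, the rise passed (1.09, adjusted p 0.0134). CD11c cells went from 15.5, 14.5 and 18.9 CPM to 86.7, 80.0 and 96.1 CPM. No library of one CD11c group came near the other, and the rise was 5.35-fold (2.42 ± 0.26, adjusted p 6.48e-06). The interaction of *Mmp13* was 1.77 ± 0.37 and missed the threshold (adjusted p 0.0580). It passed in DESeq2 (adjusted p 0.00381) and without IAIE control replicate 3 (adjusted p 0.0145). Among control libraries the subsets did not differ by the test (log2 difference -0.55 ± 0.28, adjusted p 0.182), and with CGRP the level was 2.32-fold higher in CD11c cells (1.22 ± 0.25, adjusted p 0.0016).

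*Mmp14* encodes MT1-MMP, a membrane-anchored collagenase that also activates the proenzyme of MMP2 at the cell surface. IAIE libraries held 41.9, 40.4 and 27.8 CPM as controls and 67.8, 59.0 and 78.1 CPM with CGRP. CD11c libraries held 15.5, 34.6 and 22.1 CPM as controls and 69.4, 56.7 and 74.9 CPM with CGRP. The CGRP libraries of both subsets overlapped with each other, and within a subset control and CGRP libraries did not overlap. The rise was 1.85-fold in IAIE cells (0.89 ± 0.24, adjusted p 0.0211) and 2.74-fold in CD11c cells (1.45 ± 0.24, adjusted p 3.73e-04). The call in IAIE cells was lost when 1 surrogate variable was added to the model (0.51, adjusted p 0.198), without IAIE control replicate 3 (adjusted p 0.0796) and without IAIE CGRP replicate 3 (adjusted p 0.0933). The interaction was 0.57 (95% interval -0.14 to 1.27, adjusted p 0.694). Between the subsets, control libraries differed by -0.59 ± 0.25 (adjusted p 0.0990) and CGRP libraries by -0.03 (95% interval -0.50 to 0.45, adjusted p 0.964).

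**Figure D2:**
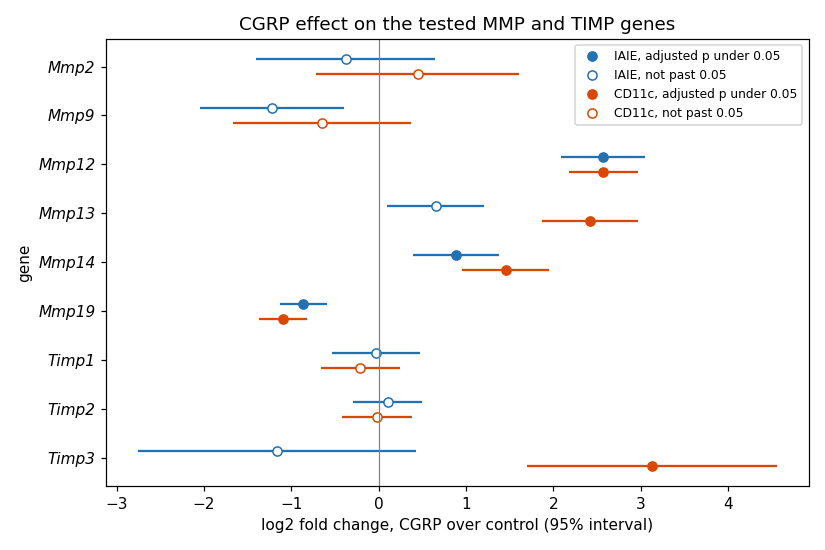
Log2 fold change of CGRP over control (horizontal axis) with its 95% interval for the 9 tested genes, in IAIE (blue) and CD11c (red) cells; filled points passed an adjusted p of 0.05. *Mmp12* had nearly the same fold change in both subsets (2.57), while the intervals of *Mmp13* (0.10 to 1.21 and 1.87 to 2.97) and *Timp3* (-2.76 to 0.43 and 1.70 to 4.56) did not overlap between subsets, though neither interaction passed.

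*Mmp19*, a secreted MMP known from inflamed synovium and myeloid cells that cuts basement membrane proteins, moved the other way. IAIE control libraries held 605, 705 and 739 CPM and IAIE CGRP libraries 428, 381 and 318 CPM. CD11c cells went from 1400, 1339 and 1234 CPM to 555, 680 and 621 CPM. Each CGRP library lay below each control library of its subset. The fall was 1.82-fold in IAIE cells (log2 fold change -0.86 ± 0.13, adjusted p 2.79e-04) and 2.14-fold in CD11c cells (-1.10 ± 0.13, adjusted p 1.33e-05), and the interaction was -0.24 (95% interval -0.62 to 0.15, adjusted p 0.799). CD11c cells held 1.94-fold more *Mmp19* than IAIE cells among control libraries (0.96 ± 0.13, adjusted p 2.92e-05) and 1.65-fold more among CGRP libraries (0.72 ± 0.13, adjusted p 5.37e-04). CD11c libraries with CGRP thus overlapped with IAIE controls. These calls on *Mmp19* held whichever library was left out.

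Among control libraries the gelatinases, which digest denatured and basement membrane collagen, were lower in CD11c than in IAIE cells. *Mmp9*, gelatinase B, a product of neutrophils and macrophages, was at 58.6, 51.0 and 36.7 CPM in IAIE control and at 18.3, 14.3 and 29.8 CPM in IAIE CGRP libraries. CD11c libraries held 11.83, 3.04 and 5.36 CPM as controls and 4.603, 6.19 and 1.60 CPM with CGRP. All IAIE CGRP libraries were below all IAIE controls, yet the 2.34-fold difference missed the threshold (log2 fold change -1.23 ± 0.39, adjusted p 0.0605). It passed in DESeq2 (adjusted p 0.0236), in limma-voom (adjusted p 0.00885) and in 5 of 12 fits with a library left out (CD11c control replicate 1 or 2, IAIE CGRP replicate 3, or CD11c CGRP replicate 2 or 3). In CD11c cells the groups overlapped (-0.65 ± 0.49, adjusted p 0.500), and the interaction was 0.57 (95% interval -0.74 to 1.89, adjusted p 0.885). *Mmp9* was 7.69-fold lower in CD11c than in IAIE cells among control libraries (-2.94 ± 0.44, adjusted p 8.84e-05) and 5.17-fold lower among CGRP libraries (-2.37 ± 0.45, adjusted p 8.61e-04). Summed neutrophil markers ran from 0 to 559 CPM over the libraries, with 5.82 to 366 CPM in IAIE controls and 71.7 to 301 CPM in IAIE CGRP libraries. Their defining marker *Ly6g* held at most 6 counts, so other genes of the list made up nearly all of the higher sums. CD11c control replicate 3, the highest at 559 CPM, had counts for all 8 genes of the list in the files. The part of neutrophil RNA in the *Mmp9* results was not tested. None of the 7 tested neutrophil markers passed in either CGRP comparison by edgeR, where 9.21% (IAIE) and 10.9% (CD11c) of all tested genes passed.

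*Mmp2*, gelatinase A, which stromal cells make in quantity, was low throughout. IAIE libraries held 7.76, 13.5 and 8.06 CPM as controls and 5.82, 9.23 and 7.54 CPM with CGRP, and CD11c libraries 4.08, 0.935 and 2.58 CPM and 2.30, 2.72 and 4.804 CPM. Control and CGRP libraries overlapped in both subsets, with log2 fold changes of -0.38 (95% interval -1.41 to 0.65, adjusted p 0.722) and 0.45 (-0.71 to 1.61, adjusted p 0.714). Among control libraries *Mmp2* was 4.03-fold lower in CD11c cells (-2.01 ± 0.54, adjusted p 0.0112), a call lost without IAIE control replicate 2 (adjusted p 0.0618) or CD11c control replicate 2 (adjusted p 0.0663). In the same comparison 5 of the 9 tested fibroblast markers were lower in CD11c cells and none was higher. Of all tested genes 10.9% were lower and 10.2% higher there. The fibroblast sum without *Pdpn* was 178 to 1389 CPM in IAIE and 28.6 to 38.2 CPM in CD11c controls. Among CGRP libraries the difference was -1.19 ± 0.51 (adjusted p 0.125), and the interaction was 0.82 ± 0.74 (adjusted p 0.838).

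*Mmp3* encodes stromelysin-1, which cuts proteoglycans and activates other proMMPs and is a product of synovial fibroblasts. It had 0, 34 and 0 counts in IAIE control and 1, 9 and 10 counts in IAIE CGRP libraries, whereas CD11c libraries held 0, 0 and 0 counts as controls and 0, 0 and 1 with CGRP. IAIE control replicate 2, at 9.75 CPM, was the one control library with any *Mmp3*. That library also held the highest fibroblast type I collagen level (*Col1a1*, 670 CPM, against 5.79 to 91.8 CPM in the other 11). Other libraries did not follow this order. IAIE CGRP replicates 2 and 3, with 9 and 10 *Mmp3* counts, had fibroblast sums without *Pdpn* and *Prg4* of 51.5 and 101 CPM. IAIE CGRP replicate 1, with 1 count, had 143 CPM. IAIE control replicate 3 (309 CPM) and CD11c CGRP replicate 1 (295 CPM) held no *Mmp3*. In CD11c cells *Mmp3* was thus at or under the floor of 3 counts in all 6 libraries, and in IAIE controls its mean rests on 1 library.

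Among the inhibitors, *Timp2*, which inhibits most MMPs and also links proMMP2 to MT1-MMP, was at 584, 598 and 476 CPM in IAIE control and 629, 627 and 523 CPM in IAIE CGRP libraries. CD11c libraries held 317, 275 and 197 CPM as controls and 336, 257 and 185 CPM with CGRP. The treatments overlapped within each subset, whereas the subsets did not overlap. Its CGRP effects were 0.10 (95% interval -0.29 to 0.50, adjusted p 0.820) and -0.02 (-0.42 to 0.38, adjusted p 0.976) on the log2 scale, with an interaction of -0.12 ± 0.27 (adjusted p 0.942). *Timp2* was 2.11-fold lower in CD11c cells among controls (-1.07 ± 0.19, adjusted p 4.30e-04) and 2.29-fold lower with CGRP (-1.19 ± 0.19, adjusted p 1.51e-04).

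*Timp1*, an inducible secreted inhibitor, had the opposite order of subsets. Its level was 19.9, 24.4 and 14.3 CPM in IAIE control and 19.3, 13.4 and 25.1 CPM in IAIE CGRP libraries. The CD11c libraries held 59.6, 73.7 and 69.9 CPM as controls and 59.1, 53.0 and 63.9 CPM with CGRP. Every CD11c library lay above every IAIE library, and treatments overlapped in both subsets. CGRP effects were -0.03 (95% interval -0.54 to 0.48, adjusted p 0.965) and -0.21 (-0.66 to 0.24, adjusted p 0.643), with an interaction of -0.18 ± 0.32 (adjusted p 0.931). CD11c cells held 3.43-fold more *Timp1* among controls (1.78 ± 0.23, adjusted p 1.88e-05) and 3.03-fold more with CGRP (1.60 ± 0.22, adjusted p 4.46e-05).

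*Timp3*, the inhibitor that binds to the matrix and also acts on ADAM proteases, was at or below 8.98 CPM in 9 libraries and higher in the CD11c CGRP libraries. IAIE libraries held 4.03, 4.30 and 8.95 CPM as controls and 5.82, 1.22 and 0.754 CPM with CGRP, and CD11c control libraries 8.98, 1.87 and 1.07 CPM. CD11c CGRP libraries held 42.2, 39.1 and 12.3 CPM, all above the other 9, with replicate 3 well below the other two. The rise in CD11c cells was 8.75-fold (log2 fold change 3.13 ± 0.68, adjusted p 0.00540) and the change in IAIE cells did not pass (-1.17 ± 0.76, adjusted p 0.409). With a library left out the IAIE value ran from -2.49 without IAIE CGRP replicate 1 (adjusted p 0.0930) to -0.68 without IAIE CGRP replicate 3, and did not pass. The interaction of 4.29 ± 1.02 missed the threshold (adjusted p 0.129). It passed with the replicate number as a block (4.75, adjusted p 0.0364), with 1 surrogate variable (adjusted p 0.0128), without CD11c control replicate 1 (adjusted p 0.0224) and without IAIE CGRP replicate 1 (adjusted p 0.0271). Among CGRP libraries *Timp3* was 12.4-fold higher in CD11c cells (3.63 ± 0.70, adjusted p 0.00111), with log2 differences from 3.15 without IAIE CGRP replicate 3 to 4.97 without IAIE CGRP replicate 1. Among control libraries the subsets differed by -0.66 ± 0.74 (adjusted p 0.600), from -1.90 without CD11c control replicate 1 to -0.10 without CD11c control replicate 3, and no such fit passed. Its rise in CD11c cells passed whichever of the 12 libraries was left out. The log2 fold change then ran from 2.60 without CD11c control replicate 3 to 4.38 without CD11c control replicate 1, and it was 4.68 with 1 surrogate variable.

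Fibroblast, chondrocyte and mural markers moved in the same libraries. None of the 5 tested endothelial genes passed for CGRP in either subset, nor did the 1 tested osteoblast gene. The endothelial list summed to 18.9 to 180 CPM in CD11c control and 21.5 to 102 CPM in CD11c CGRP libraries. Of all tested genes 6.29% rose with CGRP in CD11c cells, and in IAIE cells 5.32% rose and 3.89% fell. In CD11c cells the mural (pericyte and smooth muscle) list summed to 26.4 to 32.6 CPM in control libraries and to 56.4 to 369 CPM in those with CGRP. There 6 of its 7 tested genes rose. *Des*, *Rgs5* and *Pdgfrb* of this list passed the count filter only with CD11c CGRP libraries counted, so their p-values are not taken as support. Most of the control sum was *Cspg4* (20.1 to 30.6 CPM), which was at 37.7 to 58.7 CPM with CGRP. CD11c CGRP replicate 2 held no counts of the mural genes *Acta2* and *Myh11*. Chondrocyte markers summed to 2.104 to 6.87 CPM in CD11c control and 10.9 to 433 CPM in CD11c CGRP libraries, with 2 of 3 tested genes up. Their defining genes *Acan* and *Col2a1* had too few counts to be tested. They held at most 3 and 8 counts in CD11c controls. With CGRP they ran from 5 to 112 and from 1 to 116 counts. The median of *Col2a1* with CGRP, 0.575 CPM, lay below its highest control library (1.72 CPM). The chondrocyte gene *Cilp*, which was tested, held at most 1 count in CD11c controls and 13 to 711 counts with CGRP. *Cilp* passed the count filter only with CD11c CGRP libraries counted, so its p-value is not taken as support. In the same groups fibroblast markers summed to 209 to 281 CPM and 467 to 774 CPM, with 3 of 9 tested genes up. Without *Pdpn*, which macrophages can also express, these sums were 28.6 to 38.2 CPM and 80.6 to 394 CPM. CD11c CGRP replicate 3, the lowest in *Timp3*, had the lowest chondrocyte and fibroblast sums of its group, and replicate 2 the lowest mural sum. In IAIE cells 1 fibroblast gene rose (*Pdpn*) and 3 of the 9 tested fell, while the sum ran from 369 to 1563 CPM in control and from 572 to 2209 CPM in CGRP libraries. Without *Pdpn* and *Prg4* the IAIE sums were 127 to 1384 CPM in control and 51.5 to 143 CPM in CGRP libraries. The library with the highest full sum, IAIE CGRP replicate 1, held 1433 CPM of lubricin (*Prg4*) and 31.8 CPM of *Mmp13*, the lowest *Mmp13* of its group. The part of stromal RNA in the *Timp3*, *Mmp2*, *Mmp3* and *Mmp13* results was not tested.

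**Figure D3:**
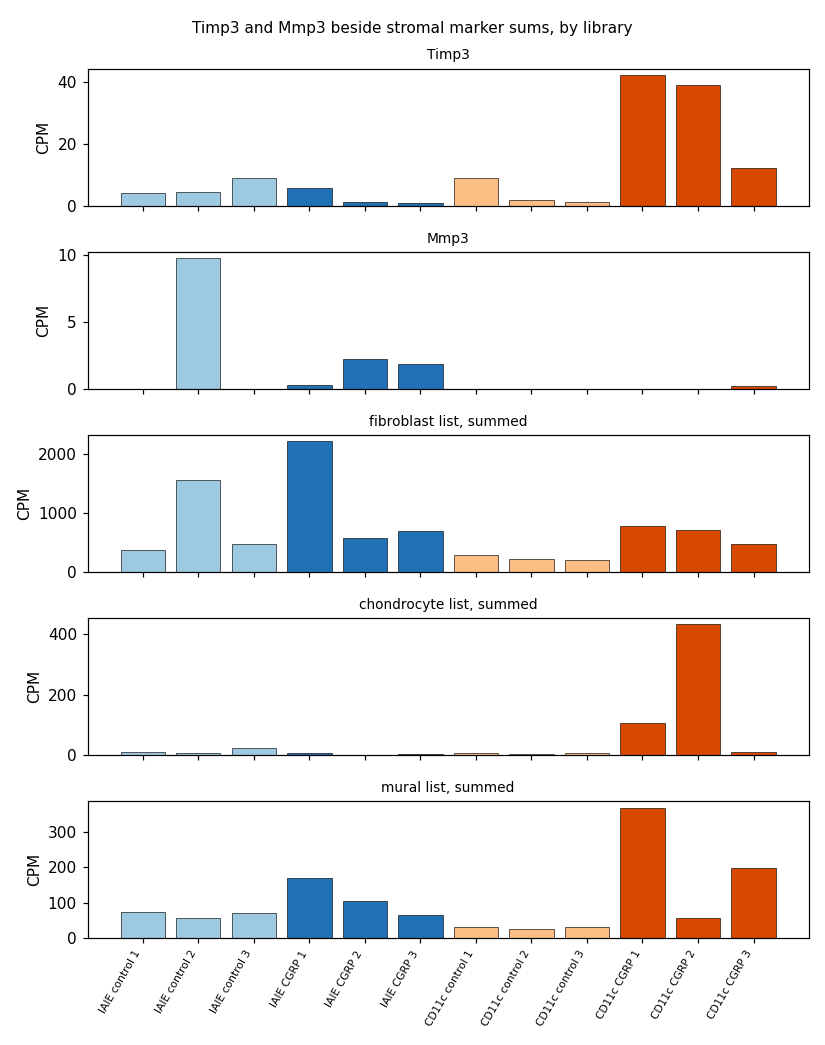
*Timp3* and *Mmp3* levels and the summed levels of fibroblast, chondrocyte and mural markers (vertical axes, TMM-scaled CPM) in the 12 libraries (horizontal axis), 1 bar per library. The 3 CD11c CGRP libraries stand highest in *Timp3* (12.3 to 42.2 CPM), and IAIE control replicate 2, the library with most *Mmp3* (9.75 CPM), has a fibroblast sum of 1563 CPM. The highest fibroblast sum, 2209 CPM in IAIE CGRP replicate 1, stands beside 0.265 CPM of *Mmp3*.

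Taken by subset, 6 of the 9 tested genes differed between CD11c and IAIE cells among control libraries, where 21.2% of all tested genes did (10.2% higher and 10.9% lower). *Mmp12*, *Mmp19* and *Timp1* were higher and *Mmp2*, *Mmp9* and *Timp2* lower in CD11c cells. Among CGRP libraries 7 of 9 differed, where 16.9% of all tested genes did (8.36% higher and 8.51% lower), with *Mmp13* and *Timp3* added to the higher genes and *Mmp2* no longer past the threshold. No gene of the 9 had an interaction past the threshold in edgeR, where 0.151% of all tested genes passed, 0.134% with a higher effect in CD11c cells and 0.0168% with a lower one. Both *Mmp13* and *Timp3* had an unadjusted interaction p under 0.05, and how many of all tested genes did was not counted. DESeq2 called 1 of the 9, where it called 70 of 11926 tested genes higher and 27 lower. Limma-voom called 0 of the 9, and 1 higher and 1 lower of 11927 tested genes. The subset and CGRP comparisons share libraries and are not independent of each other.

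Levels of different genes were compared per kilobase of annotated exon. Among IAIE control libraries *Mmp19* stood first (193 ± 19.7 CPM per kb, SD, n = 3), then *Timp2* (142 ± 17.2 CPM per kb) and *Timp1* (22.0 ± 5.67 CPM per kb). Libraries of *Timp1* lay below those of *Timp2* and overlapped with those of *Mmp9*, and *Mmp13* overlapped with both *Mmp9* and *Mmp14*. *Mmp2*, *Mmp12*, *Mmp3* and *Timp3* all averaged under 3 CPM per kb. *Mmp2*, *Mmp12* and *Timp3* lay below *Mmp14*, whereas *Mmp3* (0 to 5.41 CPM per kb) overlapped with *Mmp14* (4.66 to 7.03 CPM per kb). With CGRP, IAIE cells had *Timp2* first (152 ± 15.5 CPM per kb), above *Mmp19* (106 ± 15.6 CPM per kb), with no overlap. *Mmp13*, *Mmp12* and *Mmp14* (14.1, 12.7 and 11.5 CPM per kb) then overlapped with each other and lay above *Mmp9* (5.88 CPM per kb). In CD11c control libraries *Mmp19* (375 ± 23.9 CPM per kb) led *Timp1* (76.3 CPM per kb) and *Timp2* (67.6 CPM per kb), which overlapped. With CGRP, *Mmp12* at 92.5 ± 5.41 CPM per kb came second to *Mmp19* (175 ± 17.7 CPM per kb) and above both inhibitors (66.6 for *Timp2* and 66.0 CPM per kb for *Timp1*). Part of this order turned with the length of the longest transcript in place of all exons. *Mmp14* then stood above *Mmp13* in both IAIE groups (11.3 against 8.84 CPM per kb in control and 21.1 against 14.1 CPM per kb in CGRP libraries) and in CD11c controls (7.43 against 6.10 CPM per kb). *Mmp12* came to 3.59 CPM per kb without and 20.6 CPM per kb with CGRP in IAIE cells, and to 25.3 and 150 CPM per kb in CD11c cells.

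The make-up of the MMP transcripts shifted accordingly. *Mmp19* made up 84.3% ± 4.29 (SD, n = 3) of the summed MMP level per kilobase in IAIE control and 69.0% ± 5.08 in IAIE CGRP libraries, and went from 92.9% ± 1.09 to 55.7% ± 2.55 in CD11c cells. The share of *Mmp12* went from 0.963% ± 0.376 to 8.34% ± 1.24 in IAIE cells and from 3.88% ± 0.968 to 29.5% ± 0.853 in CD11c cells. *Mmp13* rose from 1.52% ± 0.295 to 10.5% ± 1.17 of the sum in CD11c cells. Neither of these shares overlapped between the treatments of a subset. Of the TIMP sum, *Timp2* held 86.3% ± 1.57 and 87.3% ± 4.42 in IAIE cells without and with CGRP. In CD11c cells *Timp1* held 53.2% ± 7.995 and 49.1% ± 9.15, overlapping with *Timp2* at 46.5% ± 7.67 and 48.2% ± 7.94. *Timp3* reached 2.74% ± 1.31 of the TIMP sum in CD11c CGRP libraries.

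Set against the summed level of the 3 TIMP genes per kilobase, that of the 7 MMP genes was 1.23, 1.32 and 1.69 times as high in IAIE control libraries. It was 0.893, 0.879 and 0.870 times as high in IAIE CGRP libraries. In CD11c cells the ratio was 2.86, 2.62 and 2.93 in control and 1.84, 2.52 and 2.68 in CGRP libraries. IAIE treatments did not overlap in this ratio, and in CD11c cells CGRP replicate 3 exceeded control replicate 2. By the longest transcript the CD11c ratios were 2.96, 2.72 and 3.07 in control and 2.16, 2.92 and 3.21 in CGRP libraries, so that CGRP replicate 3 stood above all controls. The IAIE ratios, 1.26 to 1.71 in control and 0.949 to 0.977 in CGRP libraries, still did not overlap. Most of the MMP sum in this ratio was *Mmp19*. *Mmp25* was not in the sum, and the ratio with it was not computed. The ratio describes transcripts, not enzyme activity, and was not tested.

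**Figure D4:**
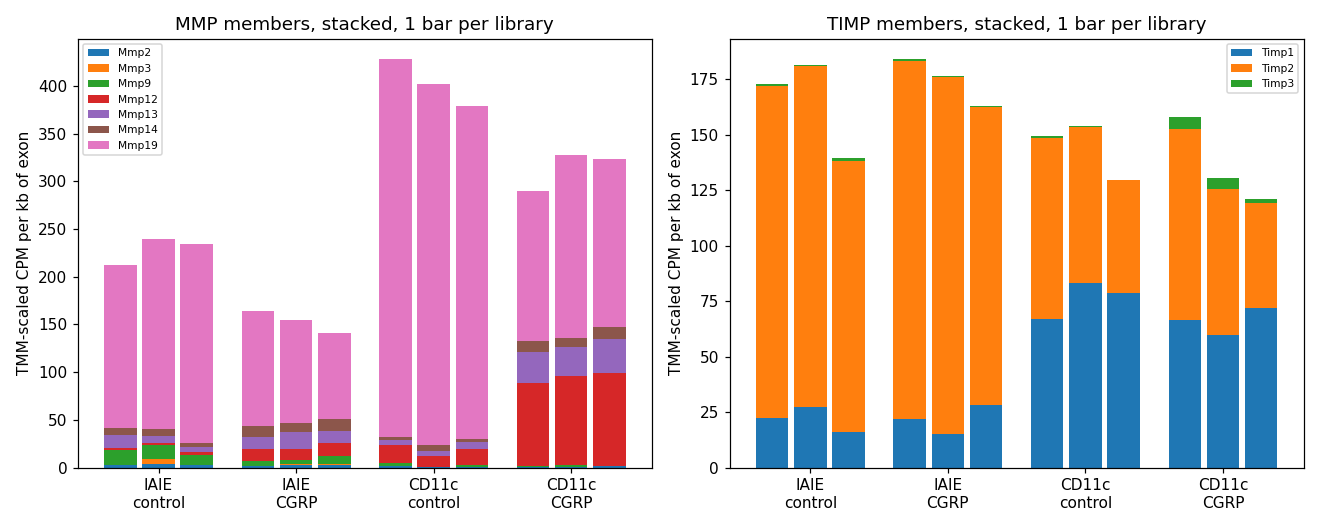
Levels of the 7 MMP genes (left) and 3 TIMP genes (right), stacked, in TMM-scaled CPM per kb of exon (vertical axes), 1 bar per library, grouped by subset and treatment (horizontal axes). *Mmp19* fills 84.3% of the MMP sum on average in IAIE control libraries and 55.7% in CD11c CGRP libraries, where *Mmp12* reaches 29.5%.

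Of the remaining MMP and TIMP genes, 14 were in the files and 2 had enough counts to be tested. *Mmp25*, which encodes the membrane-anchored MT6-MMP, was at 5.58, 8.03 and 11.6 CPM in IAIE control and 15.9, 14.8 and 15.8 CPM in IAIE CGRP libraries. CD11c libraries held 74.7, 105 and 101 CPM as controls and 152, 176 and 169 CPM with CGRP. It rose in both subsets (0.92 ± 0.24, adjusted p 0.0171, and 0.81 ± 0.17, adjusted p 0.00382). *Mmp8*, the neutrophil collagenase, averaged between 1.94 and 4.13 CPM per group and did not pass (adjusted p 0.554 and 0.690). *Timp4* held at most 3 counts in any library.

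The plasminogen system, which activates proMMPs, had 10 tested genes of 11 in the files. In the IAIE subset 2 of the 10 rose, where 5.32% of all tested genes did. They were *Serpinb2*, the urokinase inhibitor PAI-2 (1.72 ± 0.32, adjusted p 0.00167), and *Plgrkt*, a plasminogen receptor (1.25 ± 0.24, adjusted p 0.00210). In the CD11c subset, where 6.29% of all tested genes rose, *Plgrkt* rose (1.55 ± 0.22, adjusted p 1.10e-04), as did *Serpinb2* (1.24 ± 0.31, adjusted p 0.0119). *Serpine2*, which encodes protease nexin-1, was also higher there (4.06 ± 1.20, adjusted p 0.0244), with 0 to 6 counts in control and 17 to 71 counts in CGRP libraries. It passed the count filter only through the CD11c CGRP libraries, so its p-value is not taken as support. None of the list fell past the threshold in either subset, where 3.89% (IAIE) and 4.59% (CD11c) of all tested genes fell.

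Proteins that bind, induce or activate MMPs had 12 tested genes of 18 in the files. Of these 2 rose in IAIE cells, and 3 rose and 2 fell in CD11c cells. Of all tested genes 5.32% rose in IAIE cells, and 6.29% rose and 4.59% fell in CD11c cells. *Bsg*, which encodes the MMP inducer basigin (EMMPRIN), rose from 163 to 449 CPM in IAIE cells (1.46 ± 0.13, adjusted p 1.21e-06) and from 259 to 626 CPM in CD11c cells (1.27 ± 0.12, adjusted p 3.00e-06). The integrin gene *Itgav* rose in both (0.80 ± 0.16, adjusted p 0.00330, and 0.78 ± 0.16, adjusted p 0.00335). *Cd44*, a hyaluronan receptor that anchors MMP9 and MMP14, fell in CD11c cells from 1850 to 919 CPM (-1.01 ± 0.12, adjusted p 1.31e-05). Of the syndecans, cell surface proteoglycans, *Sdc4* rose (0.85 ± 0.11, adjusted p 4.50e-05) and *Sdc1* fell (-0.98 ± 0.20, adjusted p 0.00249) there.

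ADAM and ADAMTS proteases, relatives of the MMPs, had 15 tested genes of 22, with 1 higher and 1 lower in each subset. Of all tested genes 9.21% passed in the IAIE and 10.9% in the CD11c subset, near the share in this list. IAIE cells gained *Adam8*, a protease of myeloid cells (0.98 ± 0.16, from 556 to 1097 CPM, adjusted p 4.30e-04), and lost *Adam19* (-1.07 ± 0.17, adjusted p 3.92e-04). In CD11c cells *Adam15* fell (-0.98 ± 0.18, adjusted p 0.00101). *Adamts2*, a procollagen peptidase made by stromal cells, went from 0.0715 to 4.67 CPM there (adjusted p 0.00533). It held 0 or 1 counts in each control library and 19 to 29 counts in each CGRP library. *Adamts2* passed the count filter only through the CD11c CGRP libraries, so its p-value is not taken as support. Of 11 tested cathepsins, the lysosomal proteases, *Ctsl* rose in IAIE cells (0.63 ± 0.17, adjusted p 0.0266). That is 1 of 11, near the 9.21% of all tested genes that passed there. No cathepsin passed in CD11c cells by edgeR, where 10.9% of all tested genes passed, and 5 had an unadjusted p under 0.05. In the lists of ADAM, plasminogen, partner and cathepsin genes no interaction passed by edgeR, where 0.151% of all tested genes passed. In these lists 4, 2, 3 and 2 genes had an unadjusted p under 0.05. How many of all tested genes did was not counted. These counts, and that of the 5 cathepsins above, are therefore not read as a result.

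Genes with the most similar pattern were sought for each tested member as the highest Pearson r of log2(CPM + 1) over the 12 libraries among the 8780 tested genes that averaged 5 CPM or more. *Mmp19* was closest to *Irf4* (r = 0.989) and *Retnla* (r = 0.978), *Mmp12* to *Myl12a* (0.973) and *Psma2* (0.972), and *Mmp14* to *Apba3* (0.963) and *Fcgr3* (0.931). *Timp1* was closest to *Cnn2* (0.984) and *Il1r2* (0.962), *Timp2* to *Cbr2* and *Aoah* (both 0.980) and *Mmp9* to *Sfmbt1* (0.9747) and *Tollip* (0.951). *Mmp13* had *Pgam1-ps2* (0.923) and *Gabarap* (0.910) and *Mmp2* had *Caml* (0.938) and *Hsdl1* (0.937) as nearest genes. *Timp3* was closest to *Comp* (0.914), a cartilage matrix gene of the chondrocyte list, and *Htra1* (0.883). Between members, *Timp1* and *Timp2* had the most negative r (-0.892) and *Mmp9* and *Timp2* the highest (0.848). The 12 points fall into 4 groups, so each r mostly reflects group means, and no test was made.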

How the data were processed

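RNA of sorted synovial macrophages was sequenced as 12 libraries in 4 groups of 3, prepared with a stranded total RNA kit for low input. The authors deposited read counts for each gene symbol without normalization. According to the methods and the submitters' processing notes, the authors trimmed reads with Trim Galore, aligned them to mm10 with HISAT2 and counted them with featureCounts; versions, annotation and strand setting are not given in the sources used here. A table of all libraries holds the same values for these 12, plus 6 columns that match no label and were left out. Whether molecular identifiers were used in the counting is not stated, and floors cover counting error only.

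Counts were fitted with edgeR 4.0.16 (R 4.3.3): genes kept by filterByExpr by group (minimum count 10, minimum total 15), TMM scaling, 1 mean per group over all 12 libraries, quasi-likelihood F tests of 5 contrasts and Benjamini-Hochberg adjustment over all 11927 tested genes at 0.05. Adjusted p-values are from this fit, two-sided, unless another tool is named. Fold changes are log2 estimates ± SE, and means are ± SD. The interaction is the CGRP effect in CD11c cells minus that in IAIE cells. The procedure was tested on simulated data. Exon lengths and positions are from GENCODE M21 (GRCm38, the same assembly as mm10) and start-site windows from RefSeq (GRCm38.p6).

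Alternatives were scaling by RLE or by upper quartile, a filter of 1 count or more in all, DESeq2 1.42.0, limma-voom with quality weights (limma 3.58.1), the replicate number as a block, that block within treatment, 1 surrogate variable (sva 3.50.0), a fit of only the libraries compared, thinning to the lowest total, and leaving out each library in turn. What a replicate number stands for is not given. CGRP libraries of the 2 subsets with the same number deviated together from their group means (correlations of 0.332, 0.128 and 0.205 over 5411 genes, each above 0.1). Those libraries therefore count as paired by number, but the block was fitted only as an alternative, not in the main model. The other comparisons had at least 1 correlation under 0.1.

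Members and gene lists were chosen with earlier results of these data known. All 10 members are named whatever their values. From the other lists, genes past the threshold in a CGRP comparison are named, up to 4 per list and comparison by smallest p, and any tested MMP; 1 result of the plasminogen list is not reported here. For likeness, the 2 genes with the highest r are named. *Comp*, *Col1a1*, *Prg4* and *Ly6g* stand for the marker lists to which they belong.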

Additional observations from a re-analysis of the deposited data

How the results depend on the processing

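Under the other fits the count of the 9 tested genes past the threshold was within 1.5 times the main count for CGRP in CD11c cells and for both comparisons of subsets. For CGRP in IAIE cells it moved from 3 to 5 with every gene of at least 1 count (*Mmp9* and *Mmp13* added), where 829 rose and 427 fell of 26543 genes. The interaction count moved from 0 to 2 with that filter (*Mmp13* and *Timp3*), where 115 genes were higher and 56 lower of 26543. It moved to 1 with DESeq2 (*Mmp13*), where 70 were higher and 27 lower of 11926. It also moved to 1, for *Timp3*, with 1 surrogate variable (22 higher and 2 lower of 11927), with the replicate block (25 and 11) and with the replicate block within treatment (34 and 18). In the last of these *Timp3* was at 4.63 on the log2 scale (adjusted p 0.0252). The replicate block changed no other call. Leaving out 1 library gave 2 to 4 genes for CGRP in IAIE cells, 5 in each fit for CGRP in CD11c cells, 0 to 1 for the interaction, 5 to 7 for the subsets among controls and 7 in each fit among CGRP libraries. Over all 12650 to 12853 genes tested in these fits, 458 to 666 rose and 264 to 456 fell in IAIE cells. In CD11c cells 541 to 799 rose and 368 to 578 fell. The interaction called 5 to 25 higher and 1 to 7 lower. Between subsets 1021 to 1343 were higher and 919 to 1301 lower in CD11c cells among controls. Among CGRP libraries 737 to 1060 were higher and 717 to 1069 lower. Fits that left out a library kept 2 in the group concerned, whose spread is then assumed to be like that of the other groups.

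Calls also changed for *Mmp9* in IAIE cells with the compared libraries alone (adjusted p 0.00598), thinning (0.0287) and every gene of at least 1 count (0.00367), for *Mmp13* in IAIE cells with every gene of at least 1 count (0.0323), for *Mmp13* between control subsets without IAIE control replicate 3 (0.0377) and for *Mmp14* between control subsets with 1 surrogate variable (0.0140) or without CD11c control replicate 2 (0.0207). The cause of these changes was not tested.

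Signs turned only for values that passed in no fit. On the log2 scale these were *Timp1* with CGRP in IAIE cells (0.046 with every gene of at least 1 count, -0.27 to 0.19 without a library), *Timp3* there (0.019 with 1 surrogate variable), *Mmp2* with CGRP in CD11c cells (-0.0078 without CD11c control replicate 2, up to 0.88 without another library) and *Timp2* there (0.016 in limma-voom, 0.12 with 1 surrogate variable, -0.28 to 0.15 without a library). The interaction of *Mmp12* was -0.0074 with RLE scaling, -0.068 with every gene of at least 1 count, -0.0063 in DESeq2, -0.010 with 1 surrogate variable and between -0.38 and 0.17 without a library. That of *Timp1* was 0.0070 after thinning and -0.41 to 0.061 without a library, and that of *Timp2* -0.40 to 0.030 without a library. *Mmp14* between CGRP subsets was 0.024 in limma-voom and -0.12 to 0.084 without a library. Depth limits *Mmp3* and *Mmp2*, which held at most 34 and 47 counts in any library, and *Timp3*, which held at most 22 outside the CD11c CGRP group.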
